A study of Mus musculus with 18 samples.

Results

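The mouse genes of prostaglandin synthesis, receptor sensing and breakdown were followed by bulk RNA-seq in O9-1 cells, a mouse neural crest (NC) cell line grown from the embryonic head. The 10 genes, of 55335 counted, were chosen by name: the cyclooxygenases Ptgs1 and Ptgs2, the terminal synthases Ptges and Ptgis, the receptors Ptger1, Ptger2, Ptger3, Ptger4 and Ptgfr, and the degrading enzyme Hpgd. The 18 libraries were made from poly(A) RNA of cells kept in osteoblast differentiation medium and harvested at day 2.5 (d2.5) or day 5 (d5), with 3 libraries per group. In Ctrl+vehicle, cells received a scrambled siRNA (siCtrl) and no FGF2. In Ctrl+FGF2, they received siCtrl and the ligand FGF2, at a dose the labels do not state. In Y/T dKD+FGF2, they received siRNA pools against Yap and Taz (gene symbols Yap1 and Wwtr1), the transcriptional co-activators of the Hippo pathway, together with FGF2. The genotype given for the cells is wildtype in all 6 groups. No group joined the knockdown with vehicle, so the knockdown was compared only in the presence of FGF2. The groups bear on whether FGF2 acts in differentiating NC cells by way of Yap and Taz.

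Prostaglandins are lipid mediators made from arachidonic acid. The cyclooxygenases convert it to prostaglandin H2, terminal synthases turn that into PGE2, prostacyclin and other products, and each product acts on its own G protein-coupled receptors at the cell surface. In bone, PGE2 made through Ptgs2 is known as a regulator of osteoblast differentiation and of the response to loading and injury, largely through the receptors encoded by Ptger2 and Ptger4, which raise cyclic AMP.

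Between 10377151 and 14698525 gene counts were available per library (median 12330911), and levels below are CPM, gene counts per 1e6 counts of a library, with library sizes scaled over all 18 libraries by the trimmed mean of M values (TMM). Yap1 remained at 51.9% of its Ctrl+FGF2 level in the knockdown at d2.5 and at 46.2% at d5, and Wwtr1 at 61.2% and 57.7%, so both transcripts were lowered and neither was removed. The labels give each day as its own batch, so a difference between days and a difference between batches cannot be told apart. Nothing says that replicates came from separate cultures, so the p-values measure the spread between these libraries, which may be technical. The 10 neural crest markers summed to between 236 and 404 CPM in a library, with Sox9, Twist1, Snai2, Ets1 and Tfap2a detected in all 6 groups and Sox10 and Foxd3 at 0 in all 6. The 10 markers of the osteoblast lineage were all detected. Their summed level was 34732 to 35178 CPM in the vehicle libraries of d2.5, 14955 to 15254 with FGF2 and 16750 to 17077 with FGF2 and knockdown. At d5 the same sums were 70360 to 73173, 38925 to 42975 and 51591 to 54277, and their part in the results below was not tested. Col1a1, Col1a2 and Spp1 made up most of each sum. From Ctrl+FGF2 to knockdown at d2.5, mean Spp1 went from 6915 to 8766 CPM and Col1a1 from 2203 to 2009. Of 9 markers tested there, 3 were higher and 1 lower at an adjusted p under 0.05, where 24.5% of all genes passed. At d5, 8 of 10 were higher and 0 lower, where 31.7% passed. Of 10 macrophage markers, Lyz2, Itgam, C1qa, C1qb and Tyrobp were at 0 in all 6 groups, and the 10 summed to at most 11.1 CPM in a library. Of 10 endothelial markers, Cdh5, Tie1 and Cldn5 were at 0 throughout, and the 10 summed to at most 8.91 CPM. Of 8 epithelial markers Esrp1 was at 0 throughout, and the 8 summed to at most 6.35 CPM except with FGF2 at d2.5, where they reached 25.4.

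Both cyclooxygenases led the 10 genes at d2.5. Per kilobase of exon, Ptgs1 stood at 26.1 ± 0.633 CPM (SD, n = 3) and Ptgs2 at 24.5 ± 6.08 in Ctrl+vehicle at d2.5, and the libraries of these 2 genes overlapped. Ptges followed at 4.20 ± 0.139, and the receptor Ptgfr, at 0.904 ± 0.204, could not be separated from Ptger1, at 0.784 ± 0.0289. Ptgis, Hpgd and Ptger4 lay between 0.143 and 0.312. At d5 the order was different. In Ctrl+vehicle Ptgs1 still led at 25.5 ± 0.571 CPM per kilobase, and Ptgis (8.87 ± 1.21), Ptgs2 (8.29 ± 0.266) and Ptgfr (7.25 ± 1.10) came next with neighboring libraries that overlapped. In Ctrl+FGF2 at d5, Ptgfr (10.7 ± 0.148) and Ptgis (10.1 ± 1.18) stood above Ptges (8.05 ± 1.32), and Ptgs2 came next at 4.37 ± 0.362.

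**Figure D1:**
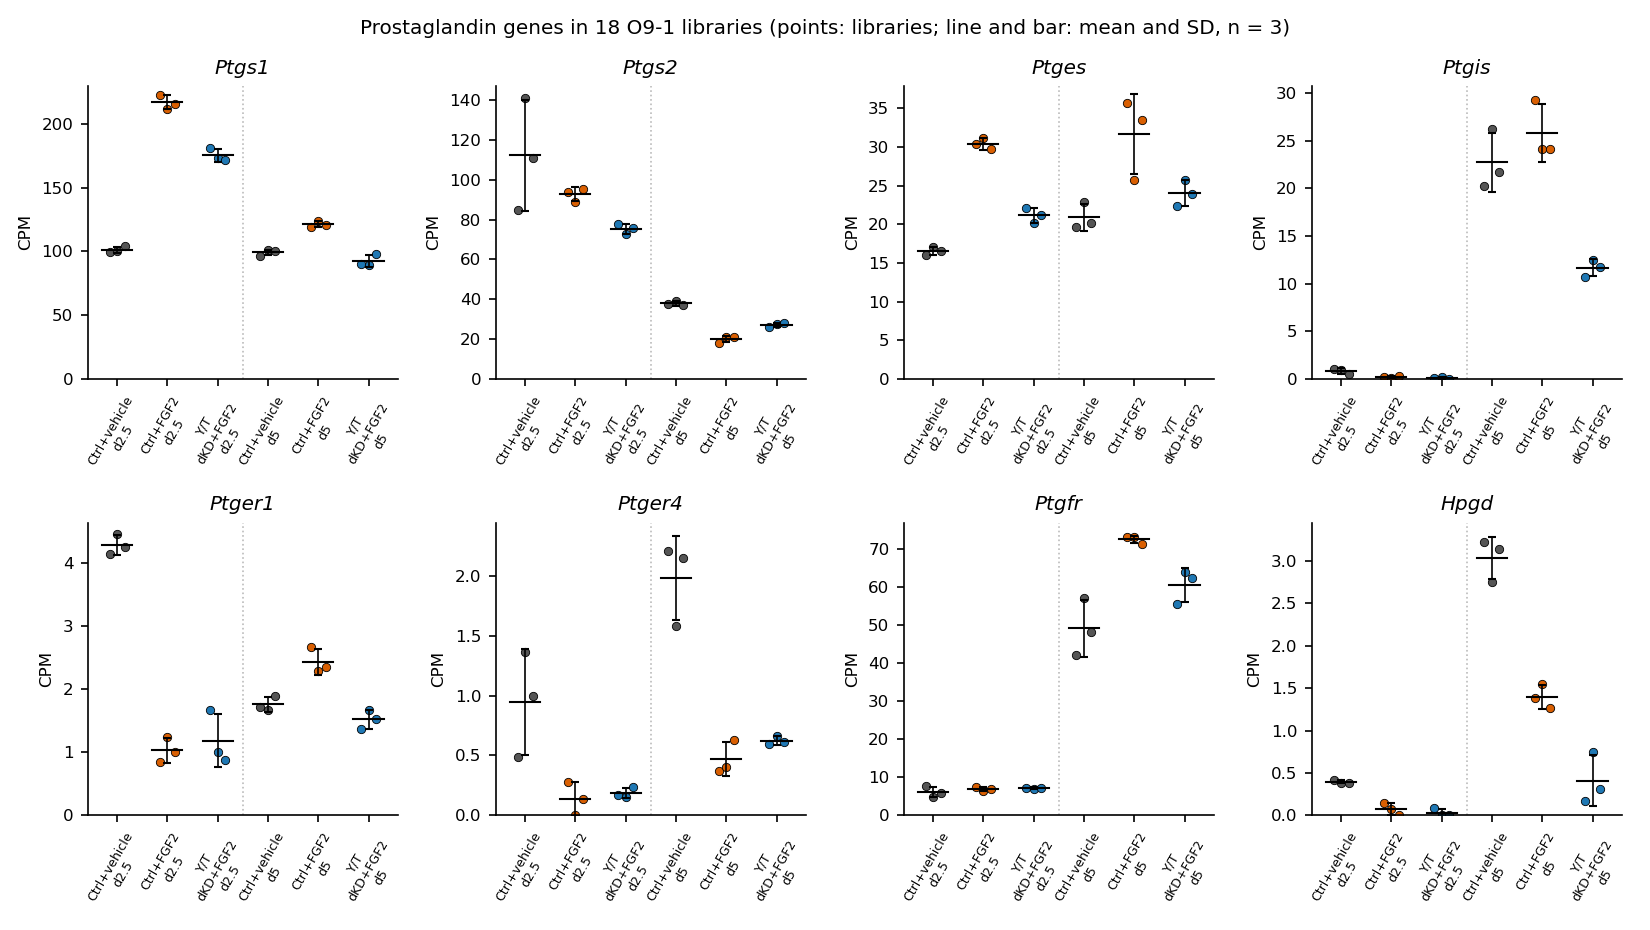
TMM-scaled CPM (linear axis from 0) of 8 prostaglandin genes in each library, by group, with d2.5 left and d5 right of the dotted line; the line and bar are the mean and SD of 3 libraries. Ptgis lies at 1.04 CPM or less in the 9 libraries of d2.5 and at 10.7 or more in the 9 of d5, while Ptgs2 is lower in all libraries of d5 than in all of d2.5.

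Ptger2 (chr14:44988195-45003820, plus strand, GRCm38) and Ptger3 (chr3:157566892-157645888, plus strand) were close to absent. Ptger2 had 7 counts over the 18 libraries, 4 of them in Ctrl+FGF2 at d5, and Ptger3 had at most 1 in any library. Neither passed the filter on low counts. A count of 0 in a group of 3 libraries allows up to between 0.0699 and 0.0907 CPM, for counting error only, so a level below that was not detectable at this depth. Ptger2, one of the 2 PGE2 receptors that raise cyclic AMP, therefore had a level near this limit or below it in all 6 groups.

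At d2.5, FGF2 was accompanied by higher Ptgs1 and Ptges and lower Ptger1. Genes were called at a Benjamini-Hochberg adjusted p under 0.05, over all genes tested. Of the 5 members tested at d2.5, 2 rose, 2 fell and 1 did not pass for Ctrl+FGF2 against Ctrl+vehicle, where 67.6% of 13677 genes were called. With the knockdown set against Ctrl+FGF2 at d2.5, 3 fell, none rose and 2 did not pass, against 24.5% of genes called. With the knockdown set against Ctrl+vehicle, 2 rose and 2 fell, against 69.8%. Ptgis, Ptger4, Hpgd, Ptger2 and Ptger3 were under the filter at d2.5.

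At d5, 8 members were tested. Ctrl+FGF2 against Ctrl+vehicle had 3 higher and 3 lower, where 47.2% of 13304 genes were called. The knockdown against Ctrl+FGF2 had 1 higher and 6 lower, where 31.7% were called, and the single member that rose was Ptgs2. The knockdown against Ctrl+vehicle had 1 higher and 4 lower, where 41.8% were called. The comparisons of a day share libraries (Ctrl+FGF2 in the first pair), so their values are given side by side and not correlated.

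**Figure D2:**
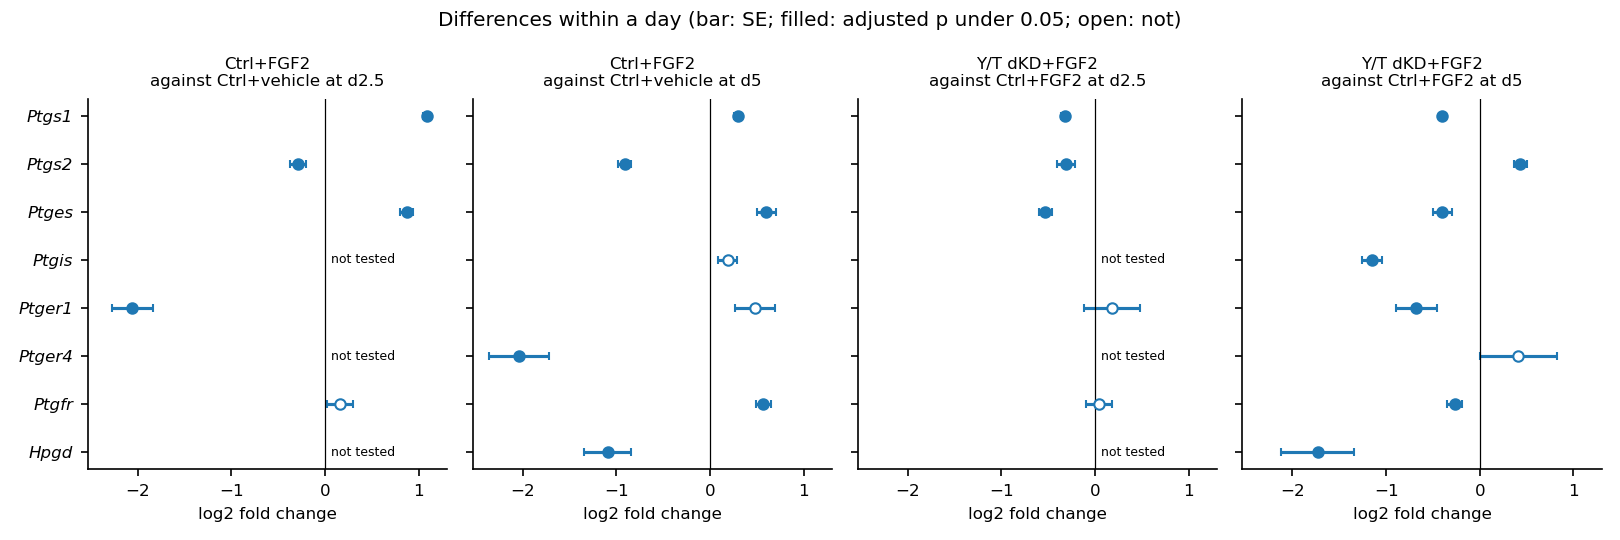
Log2 fold change (x axis) with its standard error for 8 prostaglandin genes in 4 comparisons; filled points have an adjusted p under 0.05, open points do not, and genes under the filter are marked as not tested. Ptgs2 lies at -0.31 for the knockdown at d2.5 and at 0.43 at d5, and Ptgs1 and Ptges lie right of 0 for FGF2 and left of 0 for the knockdown at both days.

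Ptgs1 (chr2:36230426-36252272, plus strand, GRCm38), the cyclooxygenase usually described as constitutive, had levels of 99.5, 100 and 104 CPM in Ctrl+vehicle at d2.5, 223, 212 and 216 in Ctrl+FGF2, and 181, 173 and 172 in Y/T dKD+FGF2. The 3 groups did not overlap: the libraries with FGF2 were highest and those with knockdown lay between. With FGF2, Ptgs1 was 2.13-fold higher (log2 fold change 1.09, SE 0.04, adjusted p = 7.2e-22), and with knockdown it was 1.25-fold lower than in Ctrl+FGF2 (-0.32, SE 0.04, adjusted p = 8.1e-08). At d5 it had 96.6, 101 and 99.9 CPM in Ctrl+vehicle, 119, 124 and 121 in Ctrl+FGF2, and 90.2, 89.6 and 97.8 in Y/T dKD+FGF2. The FGF2 libraries were again highest, and the other two groups overlapped. FGF2 raised it 1.24-fold at d5 (log2 fold change 0.30, SE 0.04, adjusted p = 1.6e-05) and knockdown lowered it 1.32-fold (-0.40, SE 0.04, adjusted p = 1.4e-06). Against Ctrl+vehicle, the knockdown group was higher at d2.5 (0.77, SE 0.04, adjusted p = 9.4e-18) and did not pass at d5 (-0.10, SE 0.04, adjusted p = 0.0963), where leaving out replicate 3 of the knockdown gave -0.13 (adjusted p = 0.0383).

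Ptgs2 (chr1:150100031-150108227, plus strand), the inducible cyclooxygenase, was called in the opposite direction with FGF2. At d2.5 it had 85.0, 141 and 111 CPM in Ctrl+vehicle, 94.1, 88.7 and 95.5 in Ctrl+FGF2, and 77.7, 72.6 and 75.7 in Y/T dKD+FGF2. Replicate 2 of Ctrl+vehicle was highest, replicate 1 of the same group was below all 3 FGF2 libraries, and the knockdown libraries were lowest. Ptgs2 was called lower with FGF2 at d2.5 (log2 fold change -0.29, SE 0.09, adjusted p = 0.00511), but this rested on 1 library: without Ctrl+vehicle replicate 2 it was -0.08 (adjusted p = 0.23), and DESeq2 gave an adjusted p of 0.171. Knockdown lowered it further at d2.5 (-0.31, SE 0.10, adjusted p = 0.0161), with groups that did not overlap. Against Ctrl+vehicle the knockdown group was lower at d2.5 by -0.60 (SE 0.09, adjusted p = 1.2e-06). The call against Ctrl+FGF2 was lost with DESeq2 (adjusted p = 0.226) and when replicate 1 or 3 of Ctrl+FGF2 or replicate 2 or 3 of the knockdown was left out (adjusted p = 0.0537 to 0.0624), whereas a fit of these 2 groups alone gave 4.3e-08.

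At d5 the pattern of Ptgs2 was sharper. It had 37.6, 39.3 and 37.0 CPM in Ctrl+vehicle, 18.1, 20.9 and 21 in Ctrl+FGF2, and 26.0, 27.4 and 28.1 in Y/T dKD+FGF2. The 3 groups did not overlap, and the knockdown libraries lay between the other two. FGF2 lowered Ptgs2 1.88-fold (log2 fold change -0.91, SE 0.07, adjusted p = 1.5e-08), and knockdown in the presence of FGF2 raised it 1.35-fold (0.43, SE 0.07, adjusted p = 2.2e-04). The knockdown group remained below Ctrl+vehicle (-0.48, SE 0.07, adjusted p = 2.0e-05).

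The response of Ptgs2 to the knockdown therefore had opposite signs at the 2 days. The difference between the knockdown effect at d5 and at d2.5 was 0.74 on the log2 scale (SE 0.18, adjusted p = 0.00279). Ptgs2 was the only 1 of 8 members called for it, where 20.9% of 14198 genes were called. Ptgis, Ptger4 and Hpgd had few counts at d2.5 and SEs of 1.14, 2.92 and 2.93, so a difference of this size could not have passed for them. The difference for Ptgs2 stayed past the threshold in 18 of 18 fits that left out a library (0.67 to 0.77) and with DESeq2 (0.74, adjusted p = 0.00284). The FGF2 effect also differed between days for Ptgs2 (-0.65, SE 0.17, adjusted p = 0.0014), as it did for Ptgs1 (-0.81, SE 0.06, adjusted p = 3.7e-13), Ptgis and Ptger1, so that 4 of 8 members were called where 60.9% of genes were. Ptgis is in this count, though it entered the fit through its d5 counts and its call is not used as support.

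Because both cyclooxygenases start the same pathway, their balance was also computed. Ptgs2 made up 48.0% ± 6.21 (SD, n = 3) of the summed Ptgs1 and Ptgs2 level per kilobase in Ctrl+vehicle at d2.5, 26.6% ± 0.584 with FGF2 and 26.7% ± 0.404 with FGF2 and knockdown. The libraries with FGF2, with or without knockdown, overlapped and lay below those with vehicle. At d5 the share was 24.5% ± 0.545, 12.3% ± 0.719 and 20.0% ± 0.568 in the same order, and the 3 groups did not overlap. No test was run on this share.

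**Figure D3:**
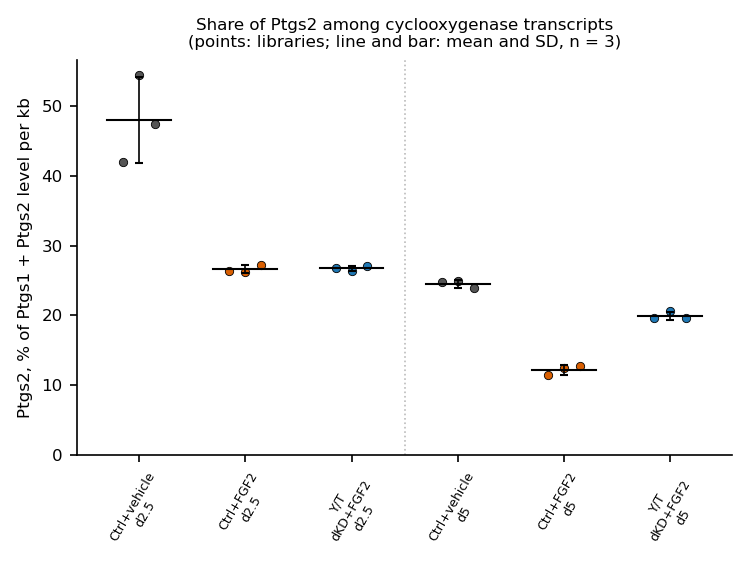
Ptgs2 as a percentage (y axis, from 0) of the summed per-kilobase level of Ptgs1 and Ptgs2 in each of 18 libraries, by group; the line and bar are the mean and SD of 3 libraries. The FGF2 libraries with and without knockdown lie together at d2.5, between 26.2% and 27.3%, and apart at d5, between 11.4% and 12.8% and between 19.6% and 20.6%.

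The promoters of the 3 synthesis genes with the highest levels at d2.5 are shown, and no link between sequence and response was tested. The windows are the 250 bases before the RefSeq start on GRCm38.p6 and are written 5′ to 3′ on the strand of the gene. Capitals mark the only match, on either strand, to 6 short motifs that were searched: the TEAD site through which Yap and Taz reach DNA (GGAATG), AP-1 (TGANTCA), the cyclic AMP response element core (TGACG), the ETS core (CCGGAA), the E-box (CACGTG) and the TATA box (TATAAA). The Ptgs1 window lies at chr2:36230176-36230425 (plus strand), that of Ptgs2 at chr1:150099781-150100030 (plus strand) and that of Ptges at chr2:30903298-30903547 (minus strand), the last inside the longer GENCODE M21 gene model.
Ptgs1: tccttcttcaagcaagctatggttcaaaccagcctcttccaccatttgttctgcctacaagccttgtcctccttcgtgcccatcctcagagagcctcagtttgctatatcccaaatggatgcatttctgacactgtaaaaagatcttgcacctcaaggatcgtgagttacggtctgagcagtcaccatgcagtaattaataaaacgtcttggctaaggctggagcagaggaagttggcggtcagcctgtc
Ptgs2: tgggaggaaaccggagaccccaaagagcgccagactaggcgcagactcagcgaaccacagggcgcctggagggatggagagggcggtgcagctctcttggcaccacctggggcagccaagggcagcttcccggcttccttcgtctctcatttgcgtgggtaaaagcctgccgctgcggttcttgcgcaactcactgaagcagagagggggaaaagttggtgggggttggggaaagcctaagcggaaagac
Ptges: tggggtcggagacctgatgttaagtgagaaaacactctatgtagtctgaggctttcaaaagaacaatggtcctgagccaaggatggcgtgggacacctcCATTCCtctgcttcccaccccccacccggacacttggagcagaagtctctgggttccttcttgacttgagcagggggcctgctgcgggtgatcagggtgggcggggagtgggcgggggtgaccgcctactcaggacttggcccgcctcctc
The match in Ptges reads CATTCC, the TEAD motif on the other strand, at positions -151 to -146 from the start. Of 32851 promoters of the same length, 12.6% held this motif, 6.75% AP-1, 17.8% the cyclic AMP core, 12% the ETS core, 6.02% the E-box and 12.4% TATAAA. No match was found in the other 7 of 8 members with a RefSeq promoter, which says only that these letters are not in these windows. GC content was 48.0% for Ptgs1, 61.6% for Ptgs2 and 59.6% for Ptges, with a median of 52.4% over all promoters.

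Ptges (chr2:30889471-30929863, minus strand) encodes the microsomal synthase that makes PGE2 from prostaglandin H2, and moved in the same direction as Ptgs1 in all 4 comparisons with Ctrl+FGF2. At d2.5 it had 16.0, 17.1 and 16.5 CPM in Ctrl+vehicle, 30.4, 31.2 and 29.7 in Ctrl+FGF2, and 22.1, 20.2 and 21.2 in Y/T dKD+FGF2. The 3 groups did not overlap, with FGF2 highest and knockdown between. FGF2 raised it 1.82-fold (log2 fold change 0.87, SE 0.07, adjusted p = 1.7e-12) and knockdown lowered it 1.45-fold (-0.53, SE 0.07, adjusted p = 8.3e-07). At d5 Ptges had 19.6, 22.9 and 20.2 CPM in Ctrl+vehicle, 35.7, 25.8 and 33.5 in Ctrl+FGF2, and 22.4, 25.8 and 23.9 in Y/T dKD+FGF2. Replicate 2 of Ctrl+FGF2 was low for its group and reached the knockdown libraries. FGF2 raised it 1.52-fold at d5 (0.60, SE 0.10, adjusted p = 1.3e-04) and knockdown lowered it 1.32-fold (-0.40, SE 0.10, adjusted p = 0.00627). The FGF2 effect on Ptges missed the threshold for a difference between days (-0.29, SE 0.13, adjusted p = 0.0504), and passed it without replicate 2 of Ctrl+vehicle, 3 of Ctrl+FGF2 or 2 of the knockdown at d2.5, or replicate 1 of Ctrl+vehicle or 1 or 3 of Ctrl+FGF2 at d5 (-0.39 to -0.30). Against Ctrl+vehicle, the knockdown group was higher at d2.5 (0.33, SE 0.08, adjusted p = 2.5e-04) and did not pass at d5 (0.21, SE 0.11, adjusted p = 0.146).

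Ptgis (chr2:167191805-167240604, minus strand), prostacyclin synthase, was almost silent at d2.5. It had 15, 14 and 6 counts in Ctrl+vehicle, 2, 1 and 4 in Ctrl+FGF2, and 1, 3 and 0 in Y/T dKD+FGF2. The vehicle libraries were highest and the other two groups overlapped. Scaled to depth, the 35 summed counts of Ctrl+vehicle were 5.00 times the 7 of Ctrl+FGF2 (95% interval 2.19 to 13.3, counting error only). An edgeR fit of all 18 libraries admitted Ptgis through its d5 counts, so no adjusted p from it is given for d2.5 alone. At d5 Ptgis had 20.3, 26.2 and 21.7 CPM in Ctrl+vehicle, 29.3, 24.1 and 24.1 in Ctrl+FGF2, and 10.7, 12.5 and 11.8 in Y/T dKD+FGF2. The first 2 groups overlapped and the knockdown libraries were lowest. FGF2 did not pass at d5 (log2 fold change 0.19, SE 0.10, adjusted p = 0.137), although leaving out Ctrl+vehicle replicate 2 gave 0.30 (adjusted p = 0.0192). Knockdown lowered Ptgis 2.22-fold (-1.15, SE 0.11, adjusted p = 3.6e-07), and the group was also below Ctrl+vehicle (-0.96, SE 0.11, adjusted p = 2.5e-06). The fitted FGF2 effect differed between days by 2.42 (SE 0.58), on the few counts of d2.5. No adjusted p is given for it, since it comes from the same fit of all 18 libraries.

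The PGE2 receptors that could be measured, Ptger1 and Ptger4, were low. Ptger1 (chr8:83666678-83672753, plus strand) encodes a receptor coupled to calcium. It had 4.14, 4.45 and 4.25 CPM in Ctrl+vehicle at d2.5, 0.845, 1.24 and 1.00 in Ctrl+FGF2, and 1.66, 1.01 and 0.869 in Y/T dKD+FGF2. The vehicle libraries stood above the rest, and the FGF2 libraries with and without knockdown overlapped. FGF2 lowered it 4.18-fold (log2 fold change -2.06, SE 0.22, adjusted p = 1.4e-09), and knockdown did not pass (0.18, SE 0.30, adjusted p = 0.718). The knockdown group was also below Ctrl+vehicle (-1.88, SE 0.22, adjusted p = 9.5e-09). In the d5 libraries Ptger1 had 1.71, 1.67 and 1.89 CPM in Ctrl+vehicle, 2.67, 2.28 and 2.34 in Ctrl+FGF2, and 1.36, 1.66 and 1.53 in Y/T dKD+FGF2. The 3 groups did not overlap, with FGF2 highest, yet the difference with FGF2 did not pass (0.48, SE 0.21, adjusted p = 0.0951).

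The FGF2 effect on Ptger1 differed between the days by 2.52 (SE 0.31, adjusted p = 2.8e-08). Knockdown lowered Ptger1 1.60-fold at d5 (log2 fold change -0.68, SE 0.22, adjusted p = 0.0268), a call lost with DESeq2 (adjusted p = 0.212), with no filter (0.0546) and when replicate 1 or 3 of either group was left out (0.0501 to 0.101).

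Ptger4 (chr15:5206661-5244187, minus strand), a receptor that raises cyclic AMP, had 7, 21 and 13 counts in Ctrl+vehicle at d2.5, 4, 0 and 2 in Ctrl+FGF2, and 2, 2 and 3 in Y/T dKD+FGF2. The vehicle libraries were highest and the other two groups overlapped. The vehicle group was 6.83 times the FGF2 group (95% counting interval 2.88 to 19.7). Ptger4 likewise entered the edgeR fit of all 18 libraries through its d5 counts, so no adjusted p from it is given for d2.5 alone. At d5 Ptger4 had 2.21, 1.58 and 2.15 CPM in Ctrl+vehicle, 0.368, 0.407 and 0.629 in Ctrl+FGF2, and 0.595, 0.665 and 0.611 in Y/T dKD+FGF2. Again the vehicle libraries were highest. FGF2 lowered it 4.10-fold (log2 fold change -2.04, SE 0.32, adjusted p = 4.6e-05), knockdown did not pass (0.41, SE 0.41, adjusted p = 0.547), and the knockdown group stayed 3.10-fold below Ctrl+vehicle (-1.63, SE 0.30, adjusted p = 2.8e-04). Ptger4 overlaps Ttc33 on the other strand, with 156 counts on its own strand and 1278 on the other.

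Ptgfr (chr3:151796502-151837630, minus strand), the receptor for PGF2α, was the most abundant receptor per kilobase, and overlapped with Ptger1 in Ctrl+vehicle at d2.5. At d2.5 its libraries ranged from 4.84 to 7.59 CPM in Ctrl+vehicle, from 6.40 to 7.47 in Ctrl+FGF2 and from 6.92 to 7.29 in Y/T dKD+FGF2, and the groups overlapped. Neither FGF2 (log2 fold change 0.16, SE 0.14, adjusted p = 0.302) nor knockdown (0.04, SE 0.14, adjusted p = 0.858) passed at d2.5, although without Ctrl+vehicle replicate 1 the first was 0.35 (adjusted p = 0.0324) and the knockdown against Ctrl+vehicle was 0.40 (adjusted p = 0.0173). At d5 Ptgfr had 42.2, 57.1 and 48.2 CPM in Ctrl+vehicle, 73.1, 73.0 and 71.3 in Ctrl+FGF2, and 55.5, 63.8 and 62.3 in Y/T dKD+FGF2. The FGF2 libraries were highest, and those of knockdown and vehicle overlapped. FGF2 raised Ptgfr 1.48-fold (0.57, SE 0.08, adjusted p = 1.1e-05) and knockdown lowered it 1.20-fold (-0.27, SE 0.08, adjusted p = 0.0113), the latter lost without knockdown replicate 1 (-0.21, adjusted p = 0.0806). The knockdown group stayed above Ctrl+vehicle (0.30, SE 0.08, adjusted p = 0.00538), with libraries that overlapped. The FGF2 effect on Ptgfr did not pass for a difference between days (0.38, SE 0.18, adjusted p = 0.0671), but did without Ctrl+vehicle replicate 2 of d2.5 (0.53, adjusted p = 0.0127) or of d5 (0.50, adjusted p = 0.00636). The summed level of 8 smooth muscle markers had the same order at d5, with 2605 to 2795 CPM in Ctrl+vehicle, 3628 to 4057 with FGF2 and 3006 to 3181 with FGF2 and knockdown. Acta2 made up most of it (2006, 2801 and 2120 CPM in these groups), and Smtn was highest with knockdown (383, 573 and 629). Of 6 markers tested at d5, 4 were higher and 0 lower with FGF2, where 47.2% of genes were called. With knockdown 2 were higher and 3 lower, where 31.7% were called. At d2.5 the summed level did not follow Ptgfr, with 279 to 386 CPM in Ctrl+vehicle, 95.9 to 104 with FGF2 and 83.6 to 93.0 with FGF2 and knockdown. Its part in the Ptgfr values was not tested.

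Hpgd (chr8:56294585-56321043, plus strand) encodes 15-hydroxyprostaglandin dehydrogenase, which inactivates PGE2 and PGF2α. At d2.5 it had 6, 6 and 5 counts in Ctrl+vehicle, 2, 1 and 0 in Ctrl+FGF2, and 1, 0 and 0 in Y/T dKD+FGF2. The vehicle group was highest, with a ratio of 5.66 to the FGF2 group (95% counting interval 1.64 to 30.2). At d5 it had 3.22, 2.75 and 3.14 CPM in Ctrl+vehicle, 1.38, 1.55 and 1.26 in Ctrl+FGF2, and 0.170, 0.748 and 0.306 in Y/T dKD+FGF2. The 3 groups did not overlap and fell in that order. FGF2 lowered Hpgd 2.13-fold (log2 fold change -1.09, SE 0.25, adjusted p = 0.00171) and knockdown lowered it a further 3.31-fold (-1.73, SE 0.39, adjusted p = 0.00255), so that the knockdown group was 7.07-fold below Ctrl+vehicle (-2.82, SE 0.33, adjusted p = 2.5e-06). Replicate 2 of the knockdown held 9 of the 14 counts of its group, and without it the knockdown effect was -2.54 (adjusted p = 6.4e-04) and the difference from Ctrl+vehicle -3.64 (adjusted p = 2.7e-06).

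Between d2.5 and d5, Ptgs2 fell while Ptgis, Ptgfr, Ptger4 and Hpgd rose in each of the 3 conditions. In Ctrl+vehicle 7 of 8 members differed between days, where 66.4% of 14198 genes were called. The count was 7 of 8 for Ctrl+FGF2, where 80.0% of genes were called, and 6 of 8 for the knockdown, where 78.4% were. Ptgs2 changed by -1.56 in Ctrl+vehicle (SE 0.11, adjusted p = 8.2e-14), -2.21 in Ctrl+FGF2 (SE 0.12, adjusted p = 1.6e-16) and -1.47 with knockdown (SE 0.12, adjusted p = 2.1e-12). Ptgs1 did not pass in Ctrl+vehicle (-0.03, SE 0.04, adjusted p = 0.567), where the upper-quartile scaling, which moved the median of all genes to -0.111, gave -0.12 (adjusted p = 0.00946). It fell in Ctrl+FGF2 (-0.84, SE 0.04, adjusted p = 3.1e-18) and with knockdown (-0.92, SE 0.04, adjusted p = 1.2e-18).

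Ptgis showed the largest change between days among the 8 members. Its d5 level was 28.1 times its d2.5 level in Ctrl+vehicle (95% counting interval 20.0 to 40.7), 158 times in Ctrl+FGF2 (76.3 to 394, from 7 counts at d2.5) and 110 times with knockdown (42.5 to 404, from 4 counts). Without replicate 2 of the knockdown at d2.5, which held 3 of those 4 counts, its fitted change was 7.83 in place of 6.65. Ptgfr rose 8.08-fold in Ctrl+vehicle (log2 fold change 3.01, SE 0.11, adjusted p = 4.1e-20), 10.5-fold in Ctrl+FGF2 and 8.45-fold with knockdown. Hpgd was 7.63 times higher in Ctrl+vehicle (4.53 to 13.6), 20.0 times in Ctrl+FGF2 (6.45 to 100, from 3 counts) and 15.7 times with knockdown (2.38 to 662, from 1 count). Its fitted changes moved with single libraries, from 4.14 to 4.97 in Ctrl+FGF2 without replicate 1 of d2.5, and from 3.54 to 5.41 or 2.72 in the knockdown without replicate 1 of d2.5 or replicate 2 of d5.

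Ptger4 went from 41 summed counts at d2.5 to 65 at d5 in Ctrl+vehicle, from 6 to 16 in Ctrl+FGF2 and from 7 to 21 with knockdown. The fitted changes were 1.03 (SE 0.31), 1.67 (SE 0.65) and 1.69 (SE 0.59). Ptger4 entered this fit through its d5 counts, which favors a rise, so no adjusted p is given as support. The change in Ctrl+FGF2 rested on few counts, and was 2.57 without replicate 1 of d2.5. It did not pass without replicate 2 (1.13, adjusted p = 0.104) or 3 (1.63, adjusted p = 0.0513) of d2.5, or without replicate 3 of d5 (1.41, adjusted p = 0.0923). Nor did it pass with unstranded counts (0.88, adjusted p = 0.17) or DESeq2 (1.73, adjusted p = 0.051). The change in Ctrl+vehicle did not pass with DESeq2 (1.07, adjusted p = 0.0562). Ptges rose in Ctrl+vehicle (0.34, SE 0.10, adjusted p = 0.00304) and did not pass in Ctrl+FGF2 (0.05, SE 0.08, adjusted p = 0.571) or with knockdown (0.19, SE 0.09, adjusted p = 0.0707). Without Ctrl+FGF2 replicate 2 of d5, both passed (0.19 each, adjusted p = 0.0232 and 0.026), and without knockdown replicate 1 of d5 the second did (0.24, adjusted p = 0.0423). Ptger1 fell in Ctrl+vehicle (-1.28, SE 0.19, adjusted p = 8.4e-07), rose in Ctrl+FGF2 (1.23, SE 0.24, adjusted p = 2.8e-05) and did not pass with knockdown (0.37, SE 0.27, adjusted p = 0.237). The summed level of 8 smooth muscle markers also differed between the days, with 83.6 to 386 CPM in the d2.5 libraries and 2605 to 4057 in those of d5. The part of these markers in the changes was not tested, and in bulk RNA fewer cells of a type and less RNA per cell cannot be told apart.

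**Figure D4:**
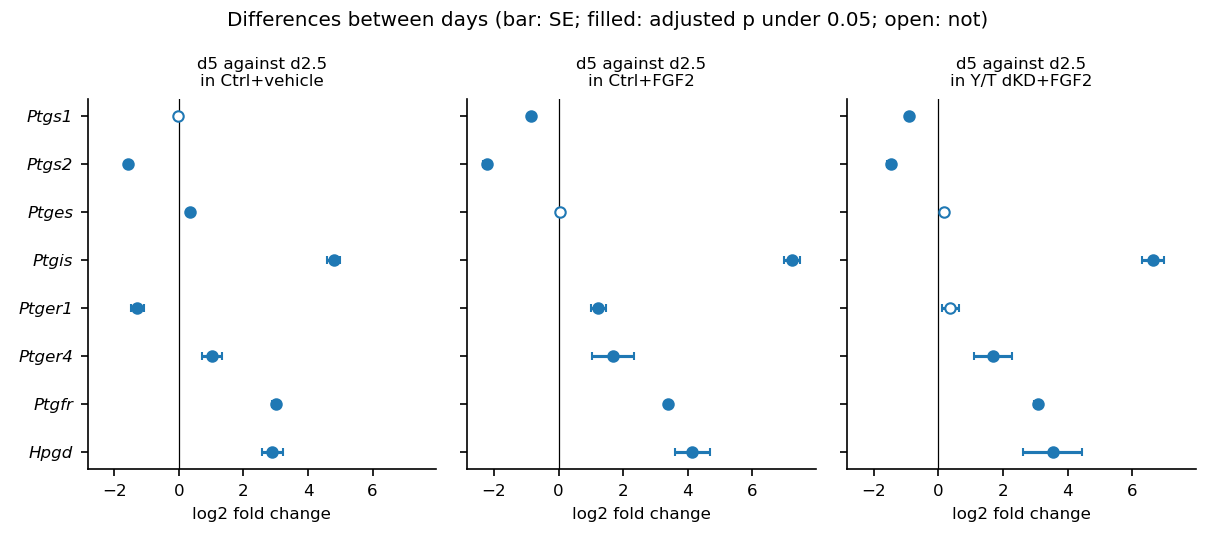
Log2 fold change of d5 against d2.5 (x axis) with its standard error for 8 prostaglandin genes in 3 conditions; filled points have an adjusted p under 0.05. Ptgis lies farthest right, at 4.79, 7.22 and 6.65, Ptgs2 lies left of 0 in each condition, and Ptger1 is left of 0 in Ctrl+vehicle and right of 0 in Ctrl+FGF2. Ptgis, Ptger4 and Hpgd entered this fit through their d5 counts.

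The wider prostanoid pathway was read from 29 other genes. At d2.5, 16 were tested, and with FGF2 7 rose and 7 fell (median log2 fold change 0.02, against 0.00 over all genes tested, of which 67.6% were called). With knockdown at d2.5, 1 rose and 2 fell (median 0.03, against 0.00, with 24.5% called). At d5, 17 were tested, with 6 higher and 8 lower for FGF2 (median -0.16, against 0.02, with 47.2% called) and 6 higher and 4 lower for knockdown (median 0.12, against 0.00, with 31.7% called). Slco2a1, the transporter that takes prostaglandins into cells for breakdown, had 1.46 ± 0.348 CPM (SD, n = 3) with vehicle at d2.5, 3.39 ± 0.483 with FGF2 and 2.08 ± 0.438 with FGF2 and knockdown. At d5 it had 1.03 ± 0.545, 2.30 ± 0.281 and 0.528 ± 0.105. It rose with FGF2 at d2.5 (log2 fold change 1.20, SE 0.22, adjusted p = 1.8e-05) and d5 (1.13, SE 0.30, adjusted p = 0.00532), and knockdown lowered it at d2.5 (-0.72, SE 0.21, adjusted p = 0.0118) and d5 (-2.09, SE 0.35, adjusted p = 1.9e-04). The libraries did not overlap in any of these 4 comparisons.

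Akr1c18, an aldo-keto reductase with prostaglandin F synthase and steroid-reducing activity, rose 2.0 on the log2 scale with FGF2 at d2.5 (SE 0.13, adjusted p = 2.6e-14) and fell by 0.62 at d5 (SE 0.12, adjusted p = 4.2e-04). Knockdown raised it at d2.5 (0.38, SE 0.10, adjusted p = 0.00492) and at d5 (1.29, SE 0.12, adjusted p = 2.0e-07). The d5 level went from 106 ± 22.0 to 261 ± 12.2 CPM. Tbxa2r, the thromboxane receptor, fell with knockdown at d5 (-1.41, SE 0.25, adjusted p = 3.4e-04), from 3.84 ± 1.07 to 1.44 ± 0.178 CPM, and rose with FGF2 at d5 (0.83, SE 0.23, adjusted p = 0.00696). Ptgfrn, which encodes a membrane protein that associates with the PGF2α receptor, fell with FGF2 at d2.5 (-1.71, SE 0.05, adjusted p = 2.6e-24) and d5 (-0.68, SE 0.04, adjusted p = 1.1e-09). Pla2g4c, a cytosolic phospholipase A2, fell with FGF2 at d2.5 (-1.15, SE 0.39, adjusted p = 0.0105) on 38 and 17 summed counts, and rose at d5 (0.95, SE 0.32, adjusted p = 0.0212). Pla2g4a, the phospholipase that frees arachidonic acid for the cyclooxygenases, is named after its values were seen: FGF2 lowered it at d2.5 (-0.54, SE 0.05, adjusted p = 1.2e-10) and d5 (-0.58, SE 0.05, adjusted p = 8.4e-08), and knockdown did not pass at either day (0.09 and 0.09, adjusted p = 0.258 and 0.209). The prostacyclin receptor gene Ptgir had at most 25 summed counts in a group, and Ptgds, a prostaglandin D synthase gene, at most 4.

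Arachidonic acid is also used by lipoxygenases. Of 20 lipoxygenase and leukotriene genes, 4 were tested at d2.5, of which 2 rose and 1 fell with FGF2 (median 0.26, where 67.6% of all genes were called) and 1 rose and 1 fell with knockdown (median 0.02, where 24.5% were). At d5 5 were tested, with 4 higher and 1 lower for FGF2 (median 0.56, where 47.2% were called) and 1 higher and 3 lower for knockdown (median -0.22, where 31.7% were). Dpep1, a dipeptidase that processes leukotrienes, was the single one to change 2-fold in a comparison with Ctrl+FGF2, with a fall at d2.5 (-1.33, SE 0.11, adjusted p = 6.7e-12). It rose with FGF2 at d5 (0.67, SE 0.07, adjusted p = 2.2e-07).

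A list of 19 genes known to respond to cyclic AMP was also read, and whether prostaglandin receptors acted on them was not tested. With FGF2, 2 rose and 9 fell of 16 tested at d2.5 (median -0.48, against 0.00 over all genes, of which 67.6% were called), and 7 rose and 3 fell of 18 tested at d5 (median 0.09, against 0.02, with 47.2% called). With knockdown, 0 rose and 4 fell at d2.5 (median -0.18, against 0.00, with 24.5% called), and 8 rose and 2 fell at d5 (median 0.24, against 0.00, with 31.7% called). Cxcl12, a chemokine gene, had 30.5 ± 1.09 CPM in Ctrl+vehicle and 9.12 ± 0.838 in Ctrl+FGF2 at d2.5, and 95 ± 15.3 and 437 ± 11.3 at d5 (SD, n = 3). It fell with FGF2 at d2.5 (-1.75, SE 0.08, adjusted p = 5.5e-18) and rose at d5 (2.21, SE 0.07, adjusted p = 3.2e-13). Areg, a growth factor of the EGF family, rose from 8 summed counts to 565 with FGF2 at d2.5 (6.06, SE 0.24, adjusted p = 2.7e-20). Ppargc1a (-3.45, SE 0.33, adjusted p = 9.9e-11) and the phosphodiesterase Pde4d (-1.37, SE 0.09, adjusted p = 1.3e-14) fell at d2.5. At d5 Ppargc1a rose with FGF2 (0.74, SE 0.09, adjusted p = 5.2e-06) and Pde4d did not pass (-0.07, SE 0.07, adjusted p = 0.417). At the same day the signaling regulator Rgs2 (1.43, SE 0.09, adjusted p = 9.0e-10) and the nuclear receptor Nr4a1 (1.23, SE 0.12, adjusted p = 1.6e-07) rose with FGF2, and Nr4a1 also rose at d2.5 (1.10, SE 0.13, adjusted p = 8.3e-09). Tnfsf11, which encodes the osteoclast factor RANKL, rose with knockdown at d5 (2.24, SE 0.27, adjusted p = 5.5e-06), from 37 to 173 summed counts, and was lower with FGF2 than with vehicle at d5 (-0.93, SE 0.33, adjusted p = 0.0288), with libraries that overlapped.

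Of 28 genes for G proteins, adenylyl cyclases and protein kinase A, 22 were tested at each day. With FGF2, 10 rose and 8 fell at d2.5 (median 0.01, with 67.6% of all genes called) and 8 rose and 2 fell at d5 (median 0.03, with 47.2% called). With knockdown, 2 rose and 2 fell at d2.5 (median 0.00, with 24.5% called) and 8 rose and 5 fell at d5 (median 0.01, with 31.7% called). The cyclic AMP sensors Rapgef3 and Rapgef4 changed in opposite directions with FGF2 at d2.5 (2.09, SE 0.15, adjusted p = 1.3e-13, and -2.37, SE 0.38, adjusted p = 2.6e-06). Prkar2b, a regulatory subunit of protein kinase A, rose (1.58, SE 0.04, adjusted p = 4.6e-24), as did the adenylyl cyclase Adcy8 (1.33, SE 0.26, adjusted p = 5.0e-05). At d5 Rapgef3 (0.35, SE 0.09, adjusted p = 0.00465) and Prkar2b (0.27, SE 0.05, adjusted p = 2.7e-04) rose again with FGF2, and Adcy8 did not pass (-0.31, SE 0.23, adjusted p = 0.288). Gnai1, which encodes an inhibitory G protein subunit, fell with knockdown at d5 (-2.60, SE 0.51, adjusted p = 7.6e-04), from 39 to 6 summed counts.

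Genes with patterns most like those of the members were listed by Pearson's r of log2 CPM over the 18 libraries, as a description, since the libraries share the split between days. Ptgs2 was closest to Rbbp8 (r = 0.987), Acsl4 (0.984) and Ttll7 (0.980), and Ptgs1 to Slc20a2 (0.978), Camk2d (0.973) and Shmt1 (0.973). Ptgfr was closest to Mylk (0.997), Akap1 (0.996) and Loxl2 (0.995), and Ptgis to Vgll3, Sulf2 and Aldh7a1 (0.992 each). Mylk, myosin light chain kinase, is also on the smooth muscle marker list. The nearest genes had lower values for Hpgd (Pip4p1, 0.963), Ptger1 (Plppr2, 0.946), Ptger4 (Lman1, 0.943) and Ptges (Cbx7, 0.909). Among the members themselves, r over the same 18 libraries was -0.97 for Ptgs2 with Ptgfr, 0.95 for Ptgis with Ptgfr, and 0.48 for the 2 cyclooxygenases.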

How the data were processed

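Poly(A) RNA of O9-1 cells was sequenced after SMARTER mRNA-Seq library preparation. For 18 libraries, the authors deposited unnormalized read counts per gene in STAR's gene count layout. The submitters' processing notes name FastQC, STAR, Picard, featureCounts and mm10, and versions are not given in the sources used here. The reverse-strand column was used, which held 96.0% to 96.6% of stranded counts. Entries naming no gene (27.0% to 34.4%) were left out, so reads mapped to several places were not counted. Of 55335 identifiers, 55154 matched GENCODE M21 (GRCm38), which gave names and exon lengths; 152 of 155 other listed genes matched. Promoters are from RefSeq.

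Counts were tested with edgeR 4.0.16 (R 4.3.3; TMM, filterByExpr with a minimum count of 10, quasi-likelihood test, Benjamini-Hochberg adjustment) in a fit of the 9 libraries of each day. Differences between days used a fit of all 18. Each standard error was taken as the size of the fold change (log2) over the root of its F statistic. Scripts were tested on simulated data. DESeq2 1.42.0 and other settings served as alternatives. Count ratio intervals are 95% and, like the limit of 3 counts behind a 0, cover counting error only. The members and lists were chosen with earlier results of these data known. Besides the members, the genes named were those of each list called within a day with a log2 fold change of at least 1 in size (the 4 largest per list and comparison) and the 3 genes most correlated with each member. One result on strand overlap at Ptger1 is not reported here.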

Additional observations from a re-analysis of the deposited data

Results flagged for a closer look

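The members below differed between the days by the test of the difference itself. The FGF2 effect (d5 minus d2.5, log2 scale) differed by -0.81 for Ptgs1, -0.65 for Ptgs2, 2.42 for Ptgis and 2.52 for Ptger1. The knockdown effect differed by 0.74 for Ptgs2. For Ptgis, the d2.5 effect rests on 35 summed counts in Ctrl+vehicle and 7 in Ctrl+FGF2. Ptgis entered the fit through its d5 counts, so its call is not used as support. For Ptgs2, leaving out Ctrl+vehicle replicate 2 of d2.5, its highest library, kept the difference in the knockdown effect at 0.74 (adjusted p = 2.1e-05). The labels give each day as its own batch, so day and batch cannot be told apart in these differences.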

How the results depend on the processing

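Of the recomputed values of single members, 1682 kept their direction and side of the threshold, 46 were no longer past it, 20 came past it and none reversed. With a 2-fold minimum change, the members called were 2 (against 4 in the report) for Ctrl+FGF2 against Ctrl+vehicle at d2.5, 0 (3) for the knockdown against Ctrl+FGF2, and 1 (4) for the knockdown against Ctrl+vehicle. At d5 they were 2 (6), 2 (7) and 2 (5), and for the differences between days 2 (4) for FGF2 and 0 (1) for the knockdown. By this setting's construction, smaller changes are not counted. At d2.5, with no filter or with all 18 libraries, 7 members were called for Ctrl+FGF2 against Ctrl+vehicle and 7 for the knockdown against Ctrl+vehicle (7 with DESeq2), since Ptgis, Ptger4 and Hpgd were then tested. The fit of all 18 libraries admitted these genes through their d5 counts, so its calls for them, at d2.5 or between the days, are not used as support. A minimum of 10 counts in every library left 3 called (5) for the knockdown against Ctrl+vehicle at d5, and 4 (7) with vehicle, 4 (7) with FGF2 and 3 (6) with knockdown between days, with fewer members tested. Leaving out a library gave 3 to 6 members for FGF2 at d2.5, 2 to 3 for the knockdown at d2.5, 4 to 6 for knockdown against vehicle at d2.5, 6 to 7, 5 to 7 and 5 to 6 for the same comparisons at d5, 4 to 6 and 1 for the differences between days, and 7, 6 to 8 and 6 to 7 between days. Upper-quartile factors moved the median of all genes to 0.124 for the difference of the FGF2 effect, where Ptgfr passed (0.47, adjusted p = 0.0246).

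Replicate numbers did not pair the libraries across all groups of a day. Same-numbered libraries correlated between -0.072 and 0.032 at d2.5 and between -0.061 and 0.115 at d5. A library correlated best with its own number in 6 of 18 and 5 of 18 cases, all between Ctrl+vehicle and Ctrl+FGF2. There, same-numbered values were 0.022, 0.032 and 0.012 at d2.5, with the others at 0.007 or less. At d5 they were 0.097, 0.115 and 0.015, with the others at 0.021 or less. These values are small, and a pairing of Ctrl+vehicle with Ctrl+FGF2 is not excluded. With a replicate block, the members called were 4, 3 and 4 at d2.5, 6, 7 and 5 at d5, 4 and 1 for the differences between days and 7, 7 and 6 between days, each equal to the count without the block. Depth limits Ptgis, Ptger4 and Hpgd at d2.5 and Ptger2 and Ptger3 at both days.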
